A study of Mus musculus with 8 samples.

Results

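Of the 22564 genes in the table, 10 were taken by symbol as the feedback loop of p53 and the cell cycle arrest genes tied to it: Trp53, Mdm2, Mdm4, Ppm1d, Cdkn1a, Ccng1, Btg2, Plk2, Plk3 and Ccnd1. Each symbol had 1 row, and all 10 were among the 13324 genes tested. The samples were skin of male C57Bl/6 mice, 4 weeks old. In 4 libraries the skin came from areas given a single dose of 35 Gy at 750 cGy/min with 6 MeV electrons and collected 24 h later, and in 4 libraries from nonirradiated areas. Replicate numbers are given, but not whether a library is a separate animal or whether both areas came from the same animals. So p-values reflect how much these 8 libraries vary, and that variation may be technical in part.

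The protein p53, encoded by Trp53, is a transcription factor that is held at a low level in unstressed cells because Mdm2, a ubiquitin ligase, marks it for destruction. DNA breaks set off kinases that free p53 from Mdm2, and p53 then switches on genes that halt the cell cycle or kill the cell. Among its targets are its own brakes, Mdm2 and the phosphatase Ppm1d, which closes a feedback loop. In skin, p53 is known to respond to radiation in the epidermis and in the dividing cells of hair follicles. Much of its control acts on the protein, which RNA does not measure.

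Sequences just upstream of Ccng1, Cdkn1a and Mdm2 are shown because these are the p53 targets of the group with the highest RNA in irradiated skin. Each is the RefSeq window on GRCm38.p6 from 250 bases before to 50 bases after an annotated start, written 5′ to 3′ on the strand of the gene. Capitals mark exact copies of the p53 half-site consensus and, for Ccng1 and Cdkn1a, the best full site, which is a pair of half-sites with no bases between. The consensus reads the same on both strands.
Ccng1, chr11:40755237-40755536, minus strand: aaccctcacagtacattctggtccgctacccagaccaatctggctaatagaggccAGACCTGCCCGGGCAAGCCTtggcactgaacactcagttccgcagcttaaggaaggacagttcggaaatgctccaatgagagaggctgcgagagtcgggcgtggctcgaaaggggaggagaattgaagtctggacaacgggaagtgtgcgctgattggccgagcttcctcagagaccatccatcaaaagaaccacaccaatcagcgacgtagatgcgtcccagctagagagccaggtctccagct
Cdkn1a, chr17:29090729-29091028, plus strand: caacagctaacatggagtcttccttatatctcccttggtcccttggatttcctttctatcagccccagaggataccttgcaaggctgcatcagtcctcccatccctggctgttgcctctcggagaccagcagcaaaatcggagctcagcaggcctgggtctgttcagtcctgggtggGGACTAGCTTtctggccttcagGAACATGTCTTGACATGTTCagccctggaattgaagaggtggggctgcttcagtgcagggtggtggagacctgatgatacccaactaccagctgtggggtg
Mdm2, chr10:117710709-117711008, minus strand: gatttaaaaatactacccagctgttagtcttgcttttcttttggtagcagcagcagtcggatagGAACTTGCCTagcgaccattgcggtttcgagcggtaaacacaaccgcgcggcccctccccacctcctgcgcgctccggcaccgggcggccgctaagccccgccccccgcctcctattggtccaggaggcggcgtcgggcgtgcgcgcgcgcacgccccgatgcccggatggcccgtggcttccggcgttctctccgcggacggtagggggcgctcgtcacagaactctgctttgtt
The Ccng1 window held a full site, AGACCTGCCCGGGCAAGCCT, that begins 195 bases before the start and matches the consensus at 19 of 20 bases. The Cdkn1a window held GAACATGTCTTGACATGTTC, beginning 51 bases before the start, also at 19 of 20, and a further half-site that begins 73 bases before it. A site at 19 or better occurred in 0.0883% of the 32851 promoter windows of the reference. The Mdm2 window held a half-site that begins 186 bases before the start, and its best full site matched at 15 of 20 bases. At least 1 exact half-site occurred in 8.36% of all windows. Trp53 and Ppm1d also held a half-site, and the best full sites of the remaining windows matched at between 14 and 17 bases. Ccnd1 had no entry, and Cdkn1a and Mdm4 each had a window at another start. The other Cdkn1a window (chr17:29093519-29093818), downstream of the one shown, held no exact half-site, and its best full site matched at 15 of 20 bases. The distances given above for the Cdkn1a sites are thus from the more upstream of its starts in the reference, not from the downstream one. Only these windows were searched, so sites elsewhere, as in an intron of Mdm2, were not read. A match in a window describes its letters, not binding.

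**Figure D1:**
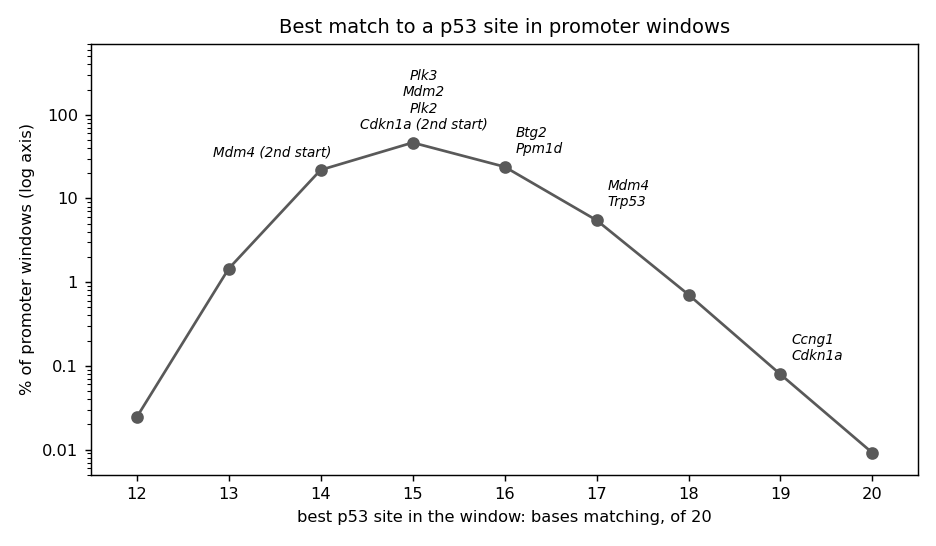
Share of RefSeq promoter windows (vertical, log axis, %) by the number of bases, of 20, at which the best p53 site in the window matches the consensus (horizontal). Gene names stand beside their score. The Ccng1 window and the Cdkn1a window shown in the text reached 19, a score or better found in 0.0883% of windows. The other windows of the group lay between 14 and 17, with the Cdkn1a window at another start at 15.

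Irradiated skin had more RNA of Ccng1, and higher values in every library of Mdm2, Cdkn1a, Btg2 and Ccnd1. The increase was 3.36-fold for Ccng1, and the ratios of means were 2.34 for Ccnd1, 2.12 for Cdkn1a, 2.05 for Mdm2 and 1.82 for Btg2. Ccng1 alone passed the adjusted threshold in limma, where 0.12% of the genes tested were called higher, and no gene of the group was called lower, against 0.128% of all genes. At an unadjusted p under 0.05, 5 of the 10 were higher (5.68% of all genes) and 0 lower (7.21%). For the same 5 genes all irradiated libraries lay above all nonirradiated ones, an order found in 3.99% of the genes tested. For 0 of the 10 the order was the reverse, against 4.48%. In bulk skin, fewer cells of a type and less RNA per cell cannot be told apart.

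The 8 libraries differed in how fully they sampled low genes. A value above 0 was listed for 9311 to 12921 genes per irradiated library and 12566 to 14610 per nonirradiated library. The commonest low read count of a library is here the highest peak, between 3.5 and 300 reads, of the smoothed number of genes per read count. It was 19.9 to 78.2 reads in irradiated libraries and 4.15 to 15.6 reads in nonirradiated libraries. In nonirradiated replicates 2 and 3, at 4.15 and 4.68 reads, it lay near the lower limit of this search. Whether low genes form a cluster there was not tested. Trp53 and Plk3 came near or below the commonest low read count in some libraries. A value of 0 is given here only as listed at 0.

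Among the brakes on p53, Mdm2 (ENSMUSG00000020184, chromosome 10, 117688875 to 117710758) stood at 130.1, 97.4, 88.5 and 117 FPKM in irradiated skin, against 63.4, 39.6, 53.6 and 54.3 FPKM in nonirradiated skin. The lowest irradiated library was 1.40 times the highest nonirradiated one. The log2 change was 1.03 with an SE of 0.24, and the adjusted p of limma was 0.0978. On recovered reads the log2 change was 0.73 with edgeR (adjusted p = 0.0935) and 0.77 with DESeq2 (adjusted p = 0.00177). The deposited count per FPKM of Mdm2 varied between 10.5 and 17.9 among libraries. It was lowest in irradiated replicate 4, where 117 FPKM rested on 1115 recovered reads.

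Mdm4 (chromosome 1, 132959484 to 133030561), a relative of Mdm2 that binds p53 and blocks its activity, had 21.3, 46.9, 48.6 and 82.2 FPKM in irradiated skin, against 34.8, 36.2, 55.4 and 17.5 FPKM in nonirradiated skin. The groups overlapped, with the highest value in irradiated replicate 4 and the lowest in nonirradiated replicate 4. On the log2 scale the change was 0.42 with an SE of 0.44 (limma adjusted p = 0.733). Leaving out irradiated replicate 1 or 4 gave 0.76 or 0.13, leaving out nonirradiated replicate 3 or 4 gave 0.66 or 0.12, and quantile normalization gave 0.13. Within a library, the log2 ratio of Mdm2 to Mdm4 averaged 1.24 ± 0.91 in irradiated and 0.63 ± 0.74 in nonirradiated skin (SD, n = 4 each). This difference of 0.61 did not pass an exact two-sided permutation test (p = 0.343, adjusted p = 0.514 over 3 pairs), for which the smallest possible p is 0.0286. The 2 groups of ratios overlapped, and leaving out irradiated replicate 1 gave a difference of 0.17. Leaving out nonirradiated replicate 3 or 4 gave 0.39 or 0.93.

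Ppm1d (chromosome 11, 85311244 to 85347066), the Wip1 phosphatase that removes damage-induced phosphates from p53 and its kinases, had 13.1, 14.6, 12.5 and 23.3 FPKM in irradiated skin, against 18.7, 13.7, 12.7 and 13.9 FPKM in nonirradiated skin. Irradiated replicate 4 was the highest of all libraries, and the rest of the groups overlapped. The log2 change was 0.07 with an SE of 0.32 (limma adjusted p = 0.950), and -0.12 without irradiated replicate 4, -0.05 after median ratio scaling and -0.11 after quantile normalization.

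Trp53 itself (chromosome 11, 69580359 to 69591873) had 17.6, 0.775 and 15.1 FPKM in irradiated replicates 1 to 3 and was listed at 0 in replicate 4, against 18.6, 18.6, 17.5 and 11.3 FPKM in nonirradiated skin. The irradiated libraries thus split, with 2 inside the nonirradiated range and 2 far below it. Recovered reads were 306, 20, 149 and 0 in irradiated skin and 99, 254, 154 and 37 in nonirradiated skin, in the order of the replicate numbers. The 20 reads lay below the commonest low read count of that library, 34.8, and the count of the library listed at 0 was 73.1. The log2 change was -1.84 with an SE of 0.90 in limma (adjusted p = 0.425), and -0.46 in the edgeR fit to reads (adjusted p = 0.989). In limma it was -1.09 without irradiated replicate 4, the library listed at 0, and -2.89 with 0.1 FPKM added. No change of Trp53 RNA in either direction was called in limma, edgeR or DESeq2 (DESeq2 adjusted p = 0.968), and the reason was not tested.

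The FPKM of Trp53 rested on unequal numbers of reads per unit. Its deposited count per FPKM, which depends on the transcript length used, ran from 3.37 to 27.1 among the 7 libraries with a value, an 8.05-fold span. For Ccng1 it ran from 29.0 to 29.2 and for Btg2 from 22.4 to 22.5. GENCODE lists 6 transcripts of Trp53, of 403 to 3275 bases, and 1 of Btg2. Nonirradiated replicate 4 had 11.3 FPKM from 37 reads, whereas irradiated replicate 1 had 17.6 FPKM from 306 reads. Mdm2 and Mdm4, with 9 and 14 listed transcripts, spanned 1.71-fold and 1.57-fold. Outside Trp53, Mdm2 and Mdm4 the span was at most 1.16-fold, a span set by Ccnd1.

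**Figure D2:**
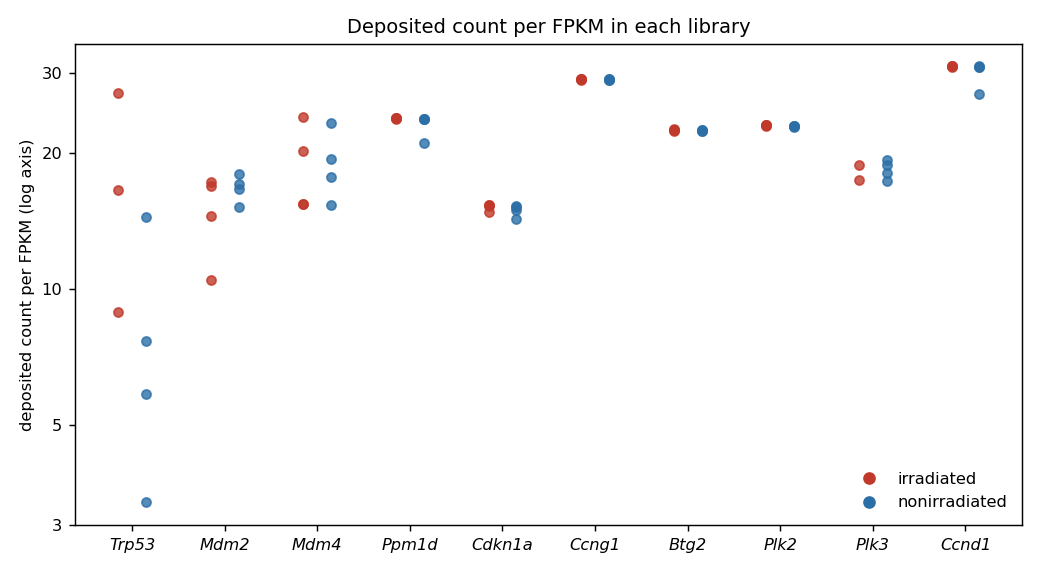
Deposited count per FPKM (vertical, log axis) of each gene in each library, with irradiated libraries left in red and nonirradiated ones right in blue. The 7 values of Trp53 spread from 3.37 to 27.1, while those of Ccng1 lie between 29.0 and 29.2; libraries listed at 0 have no point.

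**Figure D3:**
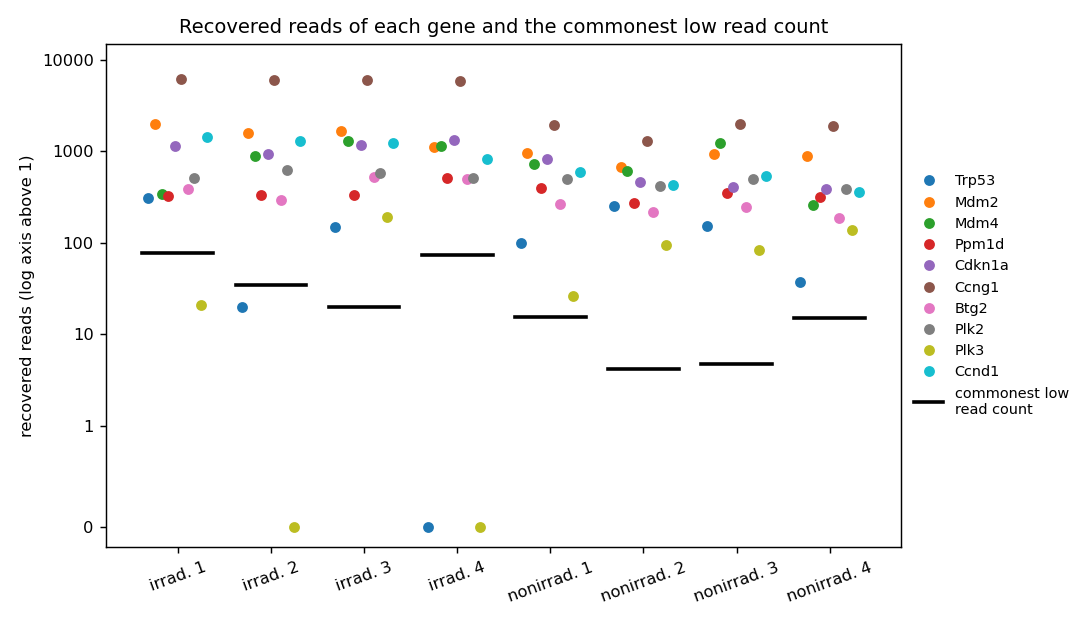
Recovered reads of the 10 genes (vertical, log axis above 1) in each of the 8 libraries, with a black bar at the commonest low read count of the library. Ccng1 lies highest in every library, Trp53 and Plk3 reach or fall below the bar in some irradiated libraries, and the bars are higher in irradiated (19.9 to 78.2 reads) than in nonirradiated libraries (4.15 to 15.6 reads).

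Of the genes that carry out arrest, Ccng1 changed most. It encodes cyclin G1, which recruits a phosphatase to Mdm2 and takes part in the feedback on p53. Ccng1 (ENSMUSG00000020326, chromosome 11, 40748552 to 40755311) had 204, 220.2, 187 and 222 FPKM in irradiated skin, against 73.5, 47.8, 60.2 and 66.6 FPKM in nonirradiated skin. The irradiated libraries were tight, with a coefficient of variation of 7.76%, and the lowest of them was 2.55 times the highest nonirradiated one. The log2 change of 1.75 with an SE of 0.21 passed in limma (adjusted p = 0.00870). Recovered reads were 6246, 6118, 6072 and 5893 in irradiated skin and 1932, 1314, 2012 and 1889 in nonirradiated skin, and Ccng1 passed with edgeR (1.64, adjusted p = 0.00125) and with DESeq2 (1.68, adjusted p = 6.60e-35). The limma adjusted p was 0.0538 without nonirradiated replicate 2, 0.0569 without nonirradiated replicate 3 and 0.0720 without irradiated replicates 1 and 4, with log2 changes of 1.63, 1.74 and 1.71. With skeletal muscle RNA as a covariate it was 0.278, with a log2 change of 1.56.

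Cdkn1a (ENSMUSG00000023067, chromosome 17, 29090976 to 29100727) encodes p21, which inhibits cyclin-dependent kinases and is the classic arrest target of p53. It had 71.8, 65.2, 72.1 and 96.8 FPKM in irradiated skin, against 60.5, 34.0, 23.8 and 26.0 FPKM in nonirradiated skin. The groups did not overlap, but nonirradiated replicate 1 came within a factor of 1.08 of the lowest irradiated library. The log2 change was 1.14 with an SE of 0.31 (limma adjusted p = 0.157). Without nonirradiated replicate 1 it was 1.42 (adjusted p = 0.0613). On reads it was 1.04 with edgeR (adjusted p = 0.0892) and 1.08 with DESeq2 (adjusted p = 0.00662).

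Btg2 (chromosome 1, 134075170 to 134079120), an antiproliferative gene and p53 target that recruits the enzymes that shorten mRNA tails, had 16.6, 13.8, 20.9 and 24.1 FPKM in irradiated skin, against 13.1, 10.3, 9.56 and 8.60 FPKM in nonirradiated skin. The groups were separate by a factor of 1.05 at their nearest. By limma the difference on the log2 scale was 0.79 (SE 0.32, adjusted p = 0.339), and neither edgeR (0.76, adjusted p = 0.341) nor DESeq2 (0.80, adjusted p = 0.107) called it.

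The Polo-like kinases Plk2 and Plk3 are stress-responsive relatives of the mitotic kinase Plk1, and both are known p53 targets. Plk2 (chromosome 13, 110395046 to 110400844) had 21.2, 28.3, 23.0 and 24.5 FPKM in irradiated skin, against 24.1, 19.2, 19.03 and 17.4 FPKM in nonirradiated skin. Only nonirradiated replicate 1 reached into the irradiated range, and the log2 change was 0.27 with an SE of 0.26 (limma adjusted p = 0.704), or 0.15 after median ratio scaling, 0.057 after quantile normalization, 0.13 with the muscle covariate and 0.17 with edgeR. Plk3 (chromosome 4, 117128655 to 117133963) had 1.15 and 9.14 FPKM in irradiated replicates 1 and 3 and was listed at 0 in replicates 2 and 4, against 1.66, 5.50, 3.75 and 7.61 FPKM in nonirradiated skin. The 9.14 FPKM of irradiated replicate 3, from 192 reads, was the highest value of all, and the other 3 irradiated values lay below every nonirradiated one. The log2 change of Plk3 was -1.26 with an SE of 0.79 (limma adjusted p = 0.547) and -0.94 with edgeR (adjusted p = 0.977). Without irradiated replicate 3 it was -1.999 in limma (adjusted p = 0.167), without irradiated replicates 1 and 4 it was -0.69, and with 0.1 FPKM added in place of 1 it was -2.83. The log2 ratio of Plk2 to Plk3 was 3.54 ± 1.67 in irradiated and 2.01 ± 0.91 in nonirradiated skin (SD, n = 4 each), a difference of 1.53 (p = 0.171 in the exact permutation test, two-sided, and 0.514 after adjustment over the 3 pairs). These ratios rest on 1 FPKM added to both values, and the difference was 3.11 with 0.1 FPKM added, 3.51 on recovered reads and 2.29 without irradiated replicate 3. The gene Tctex1d4 on the opposite strand overlaps Plk3 by 84 bp, and its reads cannot be told apart from those of Plk3 where strand was not used.

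Ccnd1 encodes cyclin D1, which drives cells from G1 into S phase and so acts against Cdkn1a. Ccnd1 (ENSMUSG00000070348, chromosome 7, 144929931 to 144939925) had 43.6, 43.9, 36.1 and 29.4 FPKM in irradiated skin, against 21.5, 14.6, 17.3 and 11.96 FPKM in nonirradiated skin. The lowest irradiated library was 1.37 times the highest nonirradiated one. Its log2 change was 1.19 with an SE of 0.29 in limma (adjusted p = 0.107), and Ccnd1 passed in the edgeR fit to reads (1.18, adjusted p = 0.0275) and with DESeq2 (1.22, adjusted p = 7.93e-06). With edgeR 0.407% of genes were called higher and 0.342% lower, and with DESeq2 2.18% higher and 2.32% lower. In the group this made 2 genes higher and 0 lower with edgeR, and 4 higher and 0 lower with DESeq2. LTO1 on the opposite strand overlaps Ccnd1 by 1771 bp, which leaves its value uncertain where strand was not used. The same holds for Mdm4, overlapped by Gm29257 over 639 bp, and for Cdkn1a, overlapped by AC167363.2 over 1046 bp.

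Inhibitor and cyclin were also compared within each library. The log2 ratio of Cdkn1a to Ccnd1 was 0.98 ± 0.50 in irradiated and 1.03 ± 0.43 in nonirradiated skin (SD, n = 4 each), a difference of -0.05 (p = 0.914 in the exact permutation test, two-sided, before and after adjustment over the 3 pairs). The irradiated libraries ran from 0.56 to 1.69 and contained 3 of the 4 nonirradiated values. Replicate 4 had the highest Cdkn1a and the lowest Ccnd1 of the irradiated libraries.

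**Figure D4:**
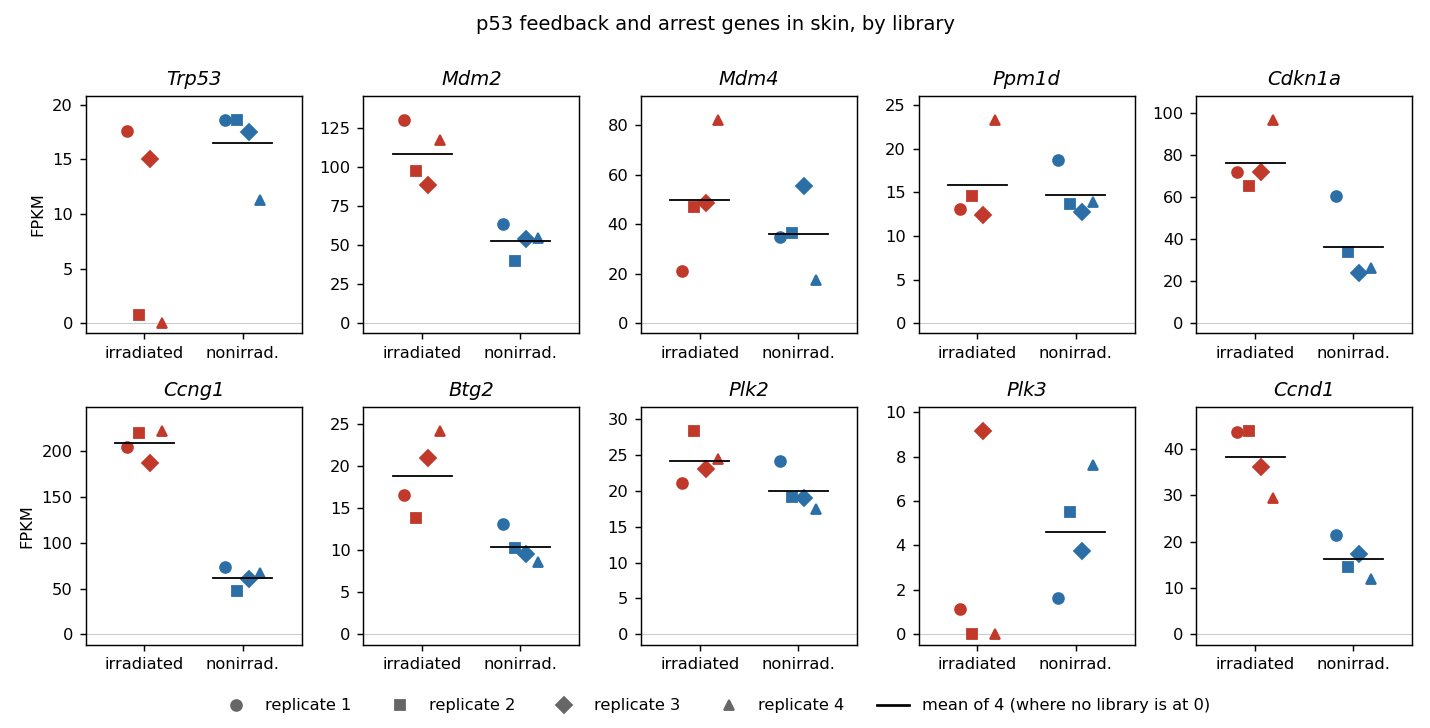
FPKM (vertical, one scale per panel) of the 10 genes in irradiated libraries (left, red) and nonirradiated libraries (right, blue), with a symbol for each replicate and a line at the mean of 4 where no library is listed at 0. Ccng1, Mdm2, Cdkn1a, Btg2 and Ccnd1 do not overlap between the groups, and Trp53 and Plk3 are listed at 0 in some irradiated libraries.

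**Figure D5:**
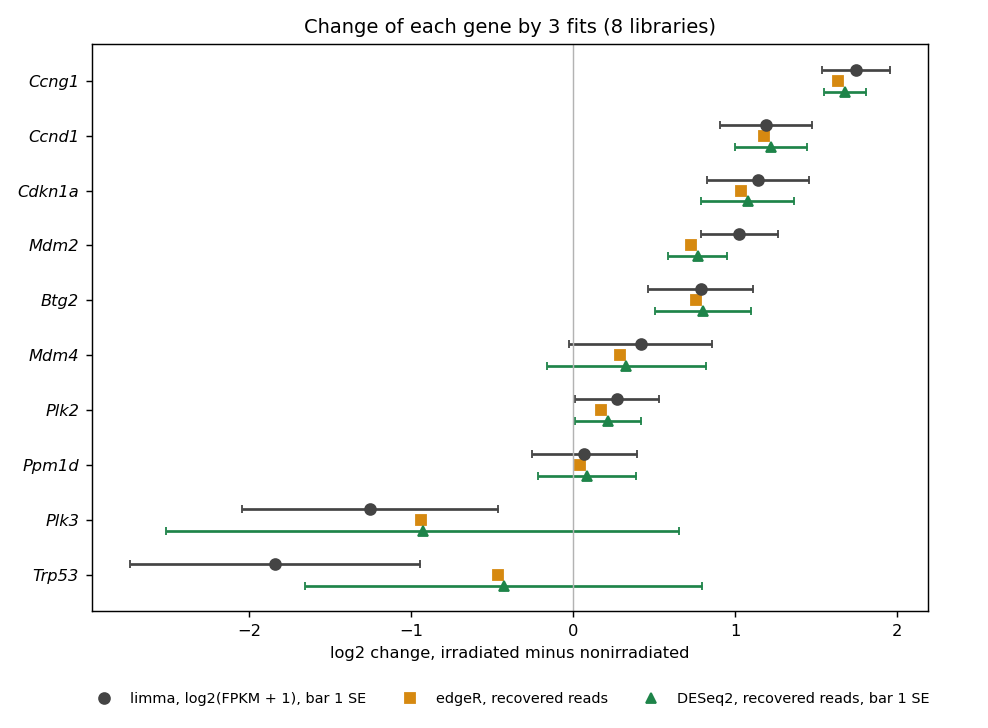
Log2 change, irradiated minus nonirradiated (horizontal), of the 10 genes from limma on log2(FPKM + 1), edgeR and DESeq2 on recovered reads, with bars of 1 SE where the fit gives one. Ccng1 is highest in all 3 fits, at 1.75, 1.64 and 1.68, and Trp53 runs from -1.84 in limma to -0.46 and -0.43 on reads.

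Per length of transcript, the order of levels in irradiated skin began with Ccng1 at 208 ± 16.2 FPKM, then Mdm2 at 108 ± 18.8 FPKM and Cdkn1a at 76.4 ± 13.9 FPKM (SD, n = 4). The ranges of Ccng1 and Mdm2 did not overlap there, while those of Mdm2 and Cdkn1a did, with Mdm2 above Cdkn1a in 4 of 4 libraries. In nonirradiated skin the order began with Ccng1 at 62.0 ± 10.9 FPKM, Mdm2 at 52.7 ± 9.81 FPKM and Cdkn1a at 36.1 ± 16.9 FPKM (SD, n = 4), and each overlapped its neighbour. Mdm4, at 36.0 ± 15.5 FPKM there (SD, n = 4), could not be ranked against Cdkn1a, which was above it in 2 of 4 libraries and was at 60.5 FPKM in replicate 1, against 23.8 to 34.0 FPKM in the other nonirradiated libraries. Ccnd1 stood at 38.2 ± 6.92 FPKM in irradiated skin, above the whole range of Plk2, and at 16.3 ± 4.06 FPKM in nonirradiated skin, overlapping both Plk2 and Ppm1d (SD, n = 4 each). Plk3 lay below the whole range of Btg2 in nonirradiated skin. Ccng1 ranked 245th and Plk3 9425th by mean FPKM among the 13324 genes tested.

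The summed marker RNA of several other cell types did not overlap between the groups, and beyond the muscle covariate its part in the results was not tested. Skeletal muscle genes summed to 5126 to 8220 FPKM in irradiated and 2019 to 6530 FPKM in nonirradiated libraries, with 16 of 17 genes above 0 in log2 change and none listed at 0. The 6530 FPKM belonged to nonirradiated replicate 1, and the other nonirradiated libraries reached at most 2341 FPKM. In that muscle-rich nonirradiated library Ccng1 was at 73.5 FPKM, Mdm2 at 63.4 FPKM, Ccnd1 at 21.5 FPKM and Cdkn1a at 60.5 FPKM. Each of these was the highest nonirradiated value of its gene and lay below all irradiated values. Being highest there among nonirradiated libraries was not particular to these genes. It also held for Btg2, Plk2, Ppm1d and, by a small margin, Trp53, but not for Mdm4 and Plk3. With the muscle mean as a covariate no gene passed in limma, 980 genes had an unadjusted p under 0.05, and the log2 change of Cdkn1a was 0.58 (adjusted p = 0.783). Genes of dividing cells, all 16 of them below 0, summed to 88.7 to 201 FPKM in irradiated and 253 to 396 FPKM in nonirradiated libraries, and 9 were listed at 0 in some library. Basal keratinocyte genes, with 7 of 8 above 0 and none listed at 0, summed to 2286 to 4140 FPKM in irradiated and 1801 to 2399 FPKM in nonirradiated libraries. Hair shaft and inner root sheath genes, all 15 below 0 and none listed at 0, summed to 534 to 1144 FPKM in irradiated and 1773 to 2499 FPKM in nonirradiated libraries. The keratinocyte markers Krt5 and Krt14 stood at 644 to 1541 FPKM and 194 to 662 FPKM over the 8 libraries, in keeping with the label of skin. Leukocyte genes, 5 of 9 above 0 and 7 listed at 0 in some library, summed to 111 to 154 FPKM in irradiated and 44.7 to 59.2 FPKM in nonirradiated libraries, but their median log2 change was 0.078 and limma called only S100a8. Genes of the differentiating epidermis, 4 of 7 above 0 and none listed at 0, summed to 1044 to 1864 FPKM in irradiated and 651 to 828 FPKM in nonirradiated libraries. The sums of fibroblast, endothelial and melanocyte markers overlapped, with median log2 changes of -0.00058, -0.31 and -0.49, and those of adipocytes ran from 1557 to 2398 FPKM in irradiated and 1238 to 1513 FPKM in nonirradiated libraries.

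Other targets of p53 are a list chosen with earlier results known. Of 36, 34 were tested, 24 of them above 0 (against 43.9% of all genes), with a median log2 change of 0.43 against -0.11 for all genes. limma called 0 of them in either direction, and 15 had an unadjusted p under 0.05, all higher (of all genes 5.68% higher and 7.21% lower). edgeR called 2 of 32 higher, Trp53inp1 and Eda2r (0.407% of all genes). DESeq2 called 7 higher and 0 lower (2.18% and 2.32% of all genes). Trp53inp1, which encodes a partner of p53 in stressed cells, had 142, 137, 120.3 and 181 FPKM in irradiated skin, against 62.6, 49.1, 60.1 and 68.4 FPKM in nonirradiated skin, without overlap. Its log2 change was 1.25 (limma adjusted p = 0.0566; edgeR adjusted p = 0.0115). Eda2r, a receptor of the tumour necrosis factor family, had 38.5, 44.7, 19.5 and 64.7 FPKM in irradiated skin, against 10.2, 3.25, 4.06 and 7.41 FPKM in nonirradiated skin. Its log2 change of 2.56 (limma adjusted p = 0.0566; edgeR adjusted p = 0.00460) was larger than that of any of the 10 genes. For Ei24 limma gave 1.39 on the log2 scale (adjusted p = 0.0644) and edgeR 0.66 (adjusted p = 0.375), and Gm26787 overlaps it on the opposite strand by 3519 bp. The genes that the table itself assigns to the p53 signalling pathway, without the 10, showed a median of -0.01. Of 55 tested, 27 were above 0 and limma called 0. At an unadjusted p under 0.05, 8 of the 55 were higher and 4 lower (5.68% and 7.21% of all genes). Calls were 0 higher and 1 lower with edgeR (0.407% and 0.342% of all genes). With DESeq2 they were 3 higher and 2 lower (2.18% and 2.32%).

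Relatives and cofactors of p53 and the kinases upstream of it had 9 of 20 above 0 and a median log2 change of -0.05. None was called by limma or edgeR. At an unadjusted p under 0.05, 1 was higher and 2 lower (5.68% and 7.21% of all genes), and DESeq2 called 0 higher and 2 lower (2.18% and 2.32%). Trp73 was the higher gene, and Chek2 and Crebbp were the lower ones in both. Trp73 and Chek2 entered the limma test through 1 group alone, so these counts are not read as results. Chek2, a checkpoint kinase that phosphorylates p53, was listed at 0 in all irradiated libraries, against 1.96, 1.70, 2.60 and 6.00 FPKM in nonirradiated skin. Its nonirradiated values rested on 29 to 106 recovered reads, a size near the commonest low read counts of the irradiated libraries (19.9 to 78.2), so no p of it is given. Trp73, a relative of p53, had 14.0, 1.24, 4.67 and 4.10 FPKM in irradiated skin, against 0.139, 0.611 and 1.02 FPKM and a listed 0 in nonirradiated skin. It reached the mean of 0.5 FPKM needed for testing through the irradiated libraries alone, so no p is given, and Trp73os overlaps it by 4875 bp on the opposite strand. Crebbp, an acetyltransferase of p53, had a log2 difference of -0.62 in limma (adjusted p = 0.342).

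The other inhibitors of cyclin-dependent kinases and the pocket proteins, which hold back entry into S phase, had 5 of 8 above 0 and a median of 0.17. None was called by limma or edgeR. At an unadjusted p under 0.05, 0 were higher and 1 lower (5.68% and 7.21% of all genes), and DESeq2 called 0 higher and 0 lower (2.18% and 2.32%). Cdkn2b had 1.68 FPKM in irradiated replicate 1 and was listed at 0 in the other irradiated libraries, against 2.17, 3.07, 1.63 and 2.20 FPKM in nonirradiated skin, and it entered the test through the nonirradiated libraries alone. Cdkn2b was the 1 gene counted as lower, and that count is not read as a result. The log2 difference in limma was -0.62 for Rbl2 (adjusted p = 0.436) and 0.42 for Cdkn1c, whose groups did not overlap (adjusted p = 0.592). Rbl2 overlaps Aktip by 12061 bp on the opposite strand. Among other cyclins and their kinases 3 of 13 were above 0, with a median of -0.59. None was called by limma or edgeR, and DESeq2 called 0 higher and 1 lower (2.18% and 2.32% of all genes). At an unadjusted p under 0.05, 0 were higher and 3 lower (5.68% and 7.21%). These 3 were Ccne1 (-1.93, limma adjusted p = 0.278), Ccnb2 (-1.49, adjusted p = 0.360) and Ccna2 (-1.31, adjusted p = 0.362), which act at the entry to S phase, in mitosis and in S and G2 phase; Ccne1 and Ccnb2 were listed at 0 in 3 irradiated libraries each, and Exosc9 overlaps Ccna2 by 863 bp on the opposite strand. The log2 change of Ccnd1, at 1.19, had the opposite sign.

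Paralogs of the 10 genes had 4 of 13 above 0 and a median of -0.32. None was called by limma or edgeR. At an unadjusted p under 0.05, 0 were higher and 1 lower (5.68% and 7.21% of all genes), and DESeq2 called 0 higher and 0 lower (2.18% and 2.32%). Plk1, the mitotic relative of Plk2 and Plk3, had 1.11 FPKM in irradiated replicate 3 and was listed at 0 in the other irradiated libraries, against 7.68, 1.55, 2.41 and 9.65 FPKM in nonirradiated skin. It too entered the test through the nonirradiated libraries alone, so no p is given. Plk1 was the 1 gene counted as lower, and that count is not read as a result.

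The profiles most like those of the 3 leading targets were found among the 8040 genes that averaged 5 FPKM or more. The measure was the root mean square difference of centred log2(FPKM + 1) over the 8 libraries. Nearest to Ccng1 were Nexn at 0.17, Serpinb2 at 0.18 and Myom3 at 0.19. Their log2 changes were 1.88, 1.70 and 1.70. Nearest to Cdkn1a were H2-D1 at 0.17, Chchd3 at 0.18 and Ptrf at 0.21. All 3 were highest, among nonirradiated libraries, in replicate 1, with 70.5, 113 and 54.0 FPKM there. Cdkn1a was highest there too, and the measure picks genes that share its profile, so this is not a separate result. Nearest to Mdm2 were Zeb1 at 0.11, Vwa5a at 0.13 and Btbd1 at 0.15. The measure used FPKM only. With edgeR on reads the log2 change was 0.41 for Zeb1 and 0.31 for Chchd3, against 1.01 and 1.07 in limma, while that of Myom3 was larger, at 1.99. The count per FPKM of Zeb1 spanned 2.72-fold, that of Chchd3 2.14-fold and that of Myom3 2.25-fold. H2-D1 belongs to a family with near-identical copies, and Serpinb2 overlaps Serpinb10 on the same strand by 6476 bp, so their values are uncertain.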

How the data were processed

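Stranded RNA-seq libraries were prepared from skin RNA after removal of ribosomal RNA, as the labels' protocols state. The table holds 22564 protein-coding genes, after 1 empty row was left out. The FPKM values (fragments scaled by transcript length and library size) are those the authors deposited. The authors also deposited estimated counts per gene in that table, scaled by a factor for each library. The submitters' processing notes list cutadapt 1.9.3, HISAT2 2.0.4, Cufflinks, Cuffdiff and mm10 without roles. Not given in the sources used here: which annotation was used, and whether reads were counted by strand.

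limma 3.58.1 (R 4.3.3, mean-variance trend, robust) was run on log2(FPKM + 1), irradiated minus nonirradiated, over the 13324 genes averaging 0.5 FPKM or more. Benjamini-Hochberg adjustment covered all these genes, and calls needed an adjusted p under 0.05. This scale understates the change of low genes. Reads were recovered by dividing the estimated counts by a step of 0.871 to 1.10 for each library. Between 92.6% and 96.3% of the values under 2000 steps then lay within 0.02 of a whole number, and all were rounded. edgeR 4.0.16 (quasi-likelihood) and DESeq2 1.42.0 were run on these reads as alternatives. Recovered reads came to between 5036276 and 6626648 per library. Fits tested on simulated data were limma, also with median ratio scaling and quantile normalization, edgeR and DESeq2. The limma fits with another pseudocount, other filters, a replicate block, the muscle covariate or left-out libraries were not tested in this way.

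The 10 genes, the gene lists and the tests were chosen with earlier results of these data known. Named genes are the 10, the 3 of smallest limma p in each of 4 lists of the pathway, the paralog of smallest p, and the 3 genes of most like profile for Ccng1, Cdkn1a and Mdm2. Only a shared replicate number, and no statement of a shared animal, links libraries of the groups. Coordinates come from GENCODE M21 (GRCm38, the assembly of mm10), matched by gene identifier. Promoter sequences are from RefSeq, GRCm38.p6. Other settings were another pseudocount, other filters, other scalings, a replicate block, the skeletal muscle mean as a covariate and left-out libraries.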

Additional observations from a re-analysis of the deposited data

Results flagged for a closer look

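Within the nonirradiated group, Trp53 was lower in replicate 4 than in the other libraries. The gap between this library and the next, divided by the range of the 4 on the log2(FPKM + 1) scale, was 0.880, above Dixon's critical value for 4 samples. The value was 11.3 FPKM, against 17.5 to 18.6 FPKM in the other nonirradiated libraries. It rested on 37 recovered reads and a deposited count per FPKM of 3.37, the lowest of the 7 libraries with a value. Of 20 groups examined, 1 was flagged, and chance flags about 1 in 20.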

How the results depend on the processing

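Of 190 values of the 10 genes under other settings, 176 kept their direction and their side of the threshold. The number of genes called, 33 in limma on FPKM, was 16 with the replicate block, 9 without irradiated replicates 1 and 4, 0 with the skeletal muscle mean as a covariate (980 at an unadjusted p under 0.05), 92 with edgeR on reads, 126 with edgeR and no filter and 707 with DESeq2. It ran from 4 to 76 when single libraries were left out. The counts moved by over 1.5 times were 20 and 51 on leaving out irradiated replicate 1 or 3, and 76, 4, 4 and 11 on leaving out nonirradiated replicate 1, 2, 3 or 4. Of the 10 genes, 1 was called in limma, 0 with the muscle covariate, 0 without irradiated replicates 1 and 4, 2 with edgeR with or without a filter, 4 with DESeq2 and 0 to 1 when single libraries were left out. The cause was not tested. Same-numbered libraries correlated at -0.013 to 0.090 in their deviations from the group means, and differently numbered ones at -0.088 to 0.078. These values cannot tell whether equal numbers mark the same animal. With the replicate block in limma, Ccng1 still passed (adjusted p = 0.0434). The log2 change of Ppm1d was -0.052 after median ratio scaling, -0.11 after quantile normalization, -0.086 with the muscle covariate, -0.11 without irradiated replicates 1 and 4 and -0.12 to 0.18 when single libraries were left out. The Cdkn1a to Ccnd1 difference ran from -0.28 to 0.093 when single libraries were left out. Values of Trp53 and Plk3 rested on few reads in some libraries.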
